A study of Rattus norvegicus with 30 samples.

Results

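C1qa, C1qb and C3 are complement genes, and they are described here in 3 brain areas of rats with traumatic brain injury (TBI) and of sham-operated rats, namely the cortex beside the lesion, the thalamus and the hippocampus. The members were set by their Ensembl identifiers, ENSRNOG00000012807 for C1qa, ENSRNOG00000012804 for C1qb and ENSRNOG00000046834 for C3. All 3 were found in each table, among 26404 identifiers. mRNA had been sequenced from 30 libraries, 1 per brain area from each of 10 adult male Sprague-Dawley rats that weighed 330 to 371 g at the operation. Rats 6 to 10 received lateral fluid-percussion injury over the left parietal cortex, a fluid pressure pulse onto the intact dura, and rats 1 to 5 received the same anaesthesia, craniectomy and other surgery without the pulse. All tissue was taken 3 months later, so no time course is available, and the hippocampal sample was the dentate gyrus with the adjoining part of CA3. The question was which transcripts differed between TBI and sham in each area, with 5 rats in each of the 6 groups.

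C1q is the recognition molecule of the classical complement pathway. It is assembled from A, B and C chains, of which C1qa and C1qb encode the first and second, and in the brain it is made mainly by microglia, where it is known for tagging synapses and debris. C3 is the protein on which the classical, lectin and alternative pathways meet. Its cleavage gives C3a, a soluble signal, and C3b, which coats targets so that phagocytes take them up, and astrocytes, microglia and macrophages can all make it.

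The reference start sites show how these genes lie. In the RefSeq annotation of GRCr8, which is not the Rnor_5.0 build of the counts, C1qa, C1qc and C1qb lie side by side on chromosome 5 with C1qc in the middle, whereas C3 lies on chromosome 9. The windows from 250 bases before to 50 bases after each start are printed here because all 3 genes were higher after TBI in cortex and thalamus. They lie at chr5:154419884-154420183 for C1qa, chr5:154407778-154408077 for C1qb and chr9:2201290-2201589 for C3, all on the minus strand, and are written 5′ to 3′ along the gene. Capitals mark the only match to a searched motif.
C1qa: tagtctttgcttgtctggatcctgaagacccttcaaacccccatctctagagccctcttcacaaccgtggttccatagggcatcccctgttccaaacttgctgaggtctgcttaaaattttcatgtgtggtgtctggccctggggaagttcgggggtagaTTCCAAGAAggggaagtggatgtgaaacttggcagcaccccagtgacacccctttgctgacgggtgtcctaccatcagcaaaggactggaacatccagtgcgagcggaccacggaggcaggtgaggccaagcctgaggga
C1qb: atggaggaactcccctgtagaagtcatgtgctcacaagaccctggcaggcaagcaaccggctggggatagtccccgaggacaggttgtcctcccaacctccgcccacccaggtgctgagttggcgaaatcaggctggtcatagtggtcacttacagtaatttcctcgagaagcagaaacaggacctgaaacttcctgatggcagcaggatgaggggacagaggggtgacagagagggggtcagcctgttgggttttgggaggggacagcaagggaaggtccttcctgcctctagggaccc
C3: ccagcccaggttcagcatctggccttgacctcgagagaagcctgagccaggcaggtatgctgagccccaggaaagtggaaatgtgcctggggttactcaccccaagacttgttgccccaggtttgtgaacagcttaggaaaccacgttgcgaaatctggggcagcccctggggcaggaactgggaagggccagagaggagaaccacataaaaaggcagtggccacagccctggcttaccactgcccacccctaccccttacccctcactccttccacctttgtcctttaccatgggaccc

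Motifs of factors known from immune cells were searched on both strands. The STAT-like palindrome TTCNNNGAA was found once, in the C1qa window, 90 bases before the start, and 8.87% of all 33469 RefSeq windows of 300 bases hold it. The NF-kappaB motif GGACTTTCC (held by 0.305% of windows), the PU.1 motif GAGGAAGT (2.42%), the string TTGCNNNAA searched as C/EBP-like (9.6%) and the interferon-type GAAANNGAA (9.71%) were absent from these letters in all 3 windows. TTGCNNNAA has 3 free bases between TTGC and AA, and other spacings were not searched. Its absence therefore does not show that C/EBP-like sites are lacking. The C3 window does hold ttgcgaaa, a closer spacing. No window was searched beyond these 300 bases.

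Libraries held between 21992859 and 31799879 counts. Each member was well counted, between 293 counts, for C1qb in the hippocampus of sham rat 5, and 7463 counts, for C1qa in the thalamus of TBI rat 7. Several libraries stood apart. Over 28 genes that separate the rats in both cortex and thalamus, 8 of 10 hippocampal libraries were most like their own rat, but the library labelled sham rat 3 was most like TBI rat 8 (r = 0.91, own rat r = -0.52) and the library labelled TBI rat 8 was most like sham rat 3 (r = 0.90, own rat r = -0.29). In the hippocampus of sham rats 4 and 5, the 10 most counted genes took 44.1% and 40.9% of all counts, against 9.95% to 16.4% in the other hippocampal libraries. The log2 fold changes of TBI over sham in the hippocampus are therefore given with and without these libraries, and the hippocampal ratios with and without those labelled rats 3 and 8. Cell type and tissue markers were not analysed here, because the tables pair no identifiers with names, and neither were C1qc, C4 or the complement receptors. In bulk tissue, more cells of a type and more RNA per cell cannot be told apart.

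In the perilesional cortex, all 3 complement genes were higher after TBI. C1qa rose 1.85-fold, C1qb 1.61-fold and C3 1.503-fold, and for each gene the 5 TBI libraries lay above the 5 sham libraries. Levels are CPM, counts scaled to a common library total, with library sizes corrected by the trimmed mean of M-values (TMM). They are not divided by transcript length, so they are compared between libraries and not between genes.

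C1qa, the A chain, stood at 49.4, 36.5, 37.0, 46.2 and 37.8 CPM in the cortex of sham rats 1 to 5 and at 69.3, 81.1, 98.2, 67.5 and 60.3 CPM in TBI rats 6 to 10. The lowest TBI library, rat 10, was 10.9 CPM above the highest sham library, rat 1. The means were 41.4 ± 5.97 CPM in sham and 75.3 ± 14.8 CPM in TBI (SD, n = 5 each), with rat 8 highest. TBI and sham differed by a log2 fold change of 0.89 (SE 0.13, 95% interval 0.62 to 1.16, edgeR adjusted p = 0.000221).

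C1qb, the B chain, stood at 24.1, 19.97, 18.6, 22.7 and 21.4 CPM in sham and at 32.9, 36.7, 38.8, 32.6 and 27.7 CPM in TBI. The order of the TBI rats was like that of C1qa, with rat 8 highest, then rat 7, and rat 10 lowest. The means were 21.4 ± 2.16 and 33.7 ± 4.25 CPM (SD, n = 5 each), a log2 fold change of 0.68 (SE 0.10, 95% interval 0.48 to 0.89, edgeR adjusted p = 0.000200).

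C3, the shared downstream component, stood at 60.6, 62.5, 52.9, 52.7 and 45.4 CPM in sham and at 102, 83.6, 81.8, 72.7 and 64.6 CPM in TBI. Here rat 6 and not rat 8 was highest, and rat 10 was again lowest, 2.11 CPM above the highest sham library. The means were 54.8 ± 6.89 and 81.0 ± 14.1 CPM (SD, n = 5 each), a log2 fold change of 0.59 (SE 0.12, 95% interval 0.34 to 0.84, edgeR adjusted p = 0.00218).

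These cortical changes are to be read against many others. Of 17185 genes tested in the cortex by edgeR, 25.8% were called at an adjusted p under 0.05, 14.2% as higher after TBI, and 10.2% had all TBI libraries above all sham libraries. The median log2 fold change of all genes was -0.01. A larger log2 fold change than that of the member was found in 5.46% of genes for C1qa, 8.55% for C1qb and 10.5% for C3. The two-sided exact permutation test of log2 CPM gave p = 0.00794 for each gene, the smallest p that 5 against 5 allows. The 10 most counted genes took 20.3% to 29.6% of counts in cortical sham libraries and 14.1% to 23.8% in TBI libraries. With that share as a covariate, the log2 fold changes were 1.12 for C1qa, 0.83 for C1qb and 0.62 for C3, all still called by edgeR.

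**Figure D1:**
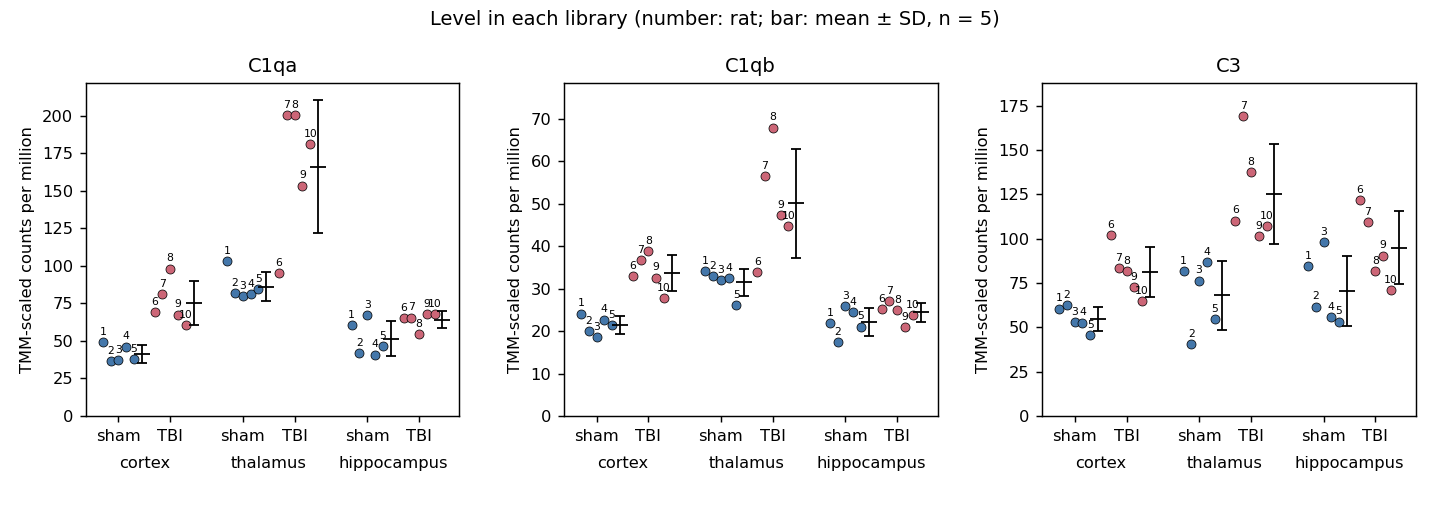
Level of C1qa, C1qb and C3 in each of the 30 libraries, in TMM-scaled CPM on the y axis, by brain area and treatment on the x axis, with sham in blue, TBI in red, the rat number above each point and bars for the mean ± SD (n = 5). TBI libraries lie above sham libraries in the cortex for all 3 genes, whereas thalamic rat 6 lies among sham for C1qa (95.2) and C1qb (33.9) and the hippocampal groups overlap.

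In the thalamus, an area away from the impact site that is joined to the injured cortex by its projections, the 3 genes were also higher after TBI. C1qa rose 1.96-fold, C3 1.86-fold and C1qb 1.61-fold. The separation was complete for C3 alone, since the thalamus of TBI rat 6 had C1q levels within the sham range.

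C1qa stood at 103, 81.7, 80.1, 81.3 and 84.6 CPM in the thalamus of sham rats and at 95.2, 201, 200.2, 153 and 181 CPM in TBI rats 6 to 10. Rat 6 was thus below sham rat 1 and the other 4 TBI rats were above every sham rat. The means were 86.2 ± 9.65 and 166 ± 44.1 CPM (SD, n = 5 each), and the TBI mean was 184 ± 22.2 CPM without rat 6 (n = 4). With all 5 TBI rats the log2 fold change was 0.97 (SE 0.18, 95% interval 0.58 to 1.36, edgeR adjusted p = 0.0213).

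C1qb stood at 34.1, 32.9, 31.9, 32.5 and 26.0 CPM in sham and at 33.9, 56.5, 67.9, 47.2 and 44.8 CPM in TBI. Rat 6 was again just below sham rat 1, by 0.20 CPM, and the other 4 TBI rats were clear of the sham group. The means were 31.5 ± 3.16 and 50.1 ± 12.8 CPM (SD, n = 5 each), a log2 fold change of 0.69 (SE 0.17, 95% interval 0.33 to 1.05, edgeR adjusted p = 0.0327).

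C3 stood at 81.9, 40.6, 76.4, 86.7 and 54.5 CPM in sham and at 110.2, 169, 138, 102 and 107 CPM in TBI. Rat 6, low for both C1q chains, was in the middle of the TBI group for C3, and the lowest TBI library, rat 9, was 14.9 CPM above the highest sham library, rat 4. Sham libraries varied more for C3 than for the C1q chains, with means of 68.0 ± 19.6 in sham and 125 ± 28.3 CPM in TBI (SD, n = 5 each). The log2 fold change was 0.89 (SE 0.22, 95% interval 0.43 to 1.36, edgeR adjusted p = 0.0329).

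Of 16605 thalamic genes tested by edgeR, 5.62% were called, 3.77% as higher after TBI, and 2.75% had all TBI libraries above all sham libraries. A larger log2 fold change was found in 2.50% of genes for C1qa, 5.69% for C1qb and 3.20% for C3. The two-sided exact permutation test gave p = 0.0159 for C1qa, p = 0.0159 for C1qb and p = 0.00794 for C3. In all, 505 of 16208 genes tested in both areas were called higher in cortex and in thalamus, the 3 complement genes among them.

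In this edgeR fit of the thalamus alone, the calls stood close to the threshold. Leaving out single rats ended them, for these 3 genes as for many others. Other fits called the same 3 genes at smaller adjusted p, and called more of all genes. They called 1931 of 21969 genes with DESeq2, 2692 of 16605 with voom and 3457 of 18040 with edgeR over all 30 libraries. DESeq2 gave adjusted p = 9.34e-05 for C1qa, 0.00399 for C1qb and 0.00303 for C3, limma's voom gave adjusted p = 0.00418, 0.00942 and 0.0154, and edgeR over all 30 libraries gave adjusted p = 0.000200, 0.000835 and 0.00197. Their log2 fold changes were 0.95 to 0.998 for C1qa, 0.67 to 0.69 for C1qb and 0.77 to 0.89 for C3. In the fit of the thalamus alone without rat 6, the log2 fold changes were 1.12 for C1qa, 0.81 for C1qb and 0.94 for C3, with edgeR adjusted p = 0.000202, 0.00344 and 0.0168. Leaving out rat 3, 5, 7, 8 or 10 in turn ended the edgeR call of C1qa (log2 fold changes 0.88 to 0.95, adjusted p = 0.0542 to 0.0669) and of C3 (0.76 to 0.95, adjusted p = 0.0672 to 0.0989). The call of C1qb also ended without rat 4 or rat 9 (0.55 to 0.73 over these 7 rats, edgeR adjusted p = 0.0513 to 0.0961). With rat 3, 5, 7 or 8 left out, edgeR called 0 of all thalamic genes tested. Without rat 10 it called 67 of 16742, against 934 of 16605 with all rats. It called 468 without rat 4, 550 without rat 9 and 2421 without rat 6. The 10 most counted genes took 6.32% to 9.13% of counts in thalamic sham libraries and 7.53% to 10.5% in TBI libraries. With this share as a covariate, edgeR called none of the genes tested, and the log2 fold changes were 0.89 for C1qa, 0.60 for C1qb and 1.20 for C3 (edgeR adjusted p = 0.127, 0.168 and 0.127).

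**Figure D2:**
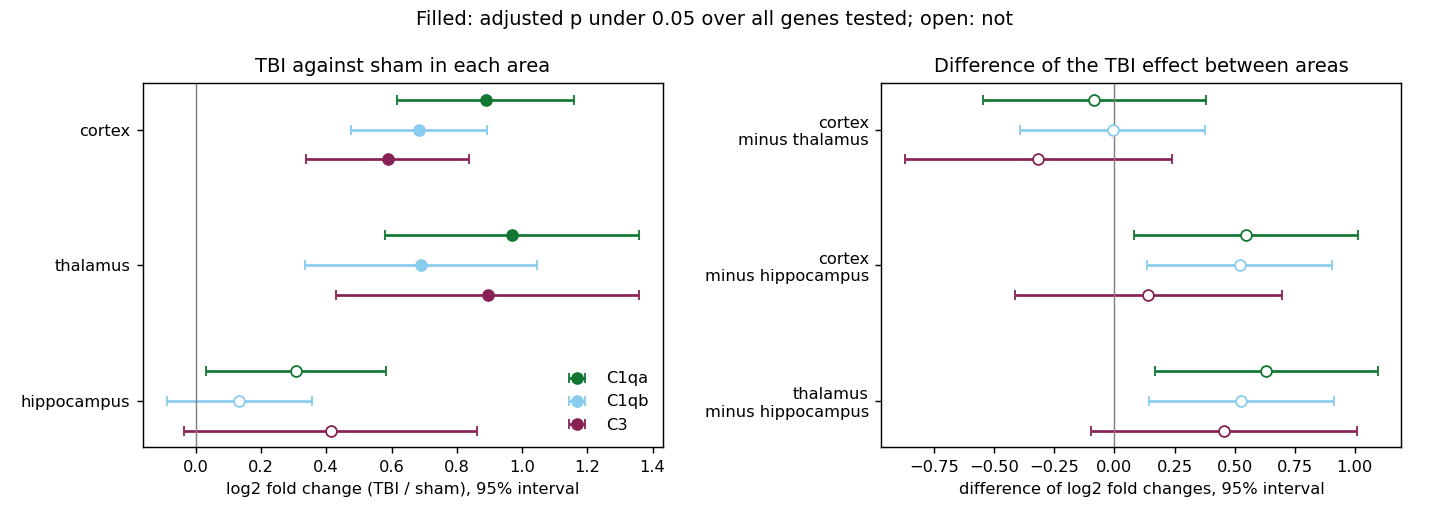
Left, log2 fold change of TBI over sham on the x axis for each gene in each area, and right, the difference of these log2 fold changes between areas, with edgeR estimates as points and 95% intervals as lines. Filled points have an adjusted p under 0.05, which holds for all 3 genes in cortex and thalamus (0.59 to 0.97) and for no gene in the hippocampus or between areas.

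In the hippocampus, with all libraries, the complement genes showed smaller differences than in cortex and thalamus, and the groups overlapped for every gene. C1qa was 1.24-fold, C1qb 1.097-fold and C3 1.33-fold the sham level, and none was called by edgeR. Without the libraries labelled rats 3 and 8, the log2 fold change of C3 was 0.61, against 0.59 in the cortex. No difference of the response between areas passed the interaction test given below.

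C1qa stood at 60.7, 42.1, 67.0, 40.8 and 46.5 CPM in libraries labelled sham rats 1 to 5 and at 65.2, 65.5, 54.4, 67.7 and 68.0 CPM in those labelled TBI rats 6 to 10. The highest sham library was the one labelled rat 3 and the lowest TBI library the one labelled rat 8, the pair whose rat match was exchanged. Without them, the 4 TBI libraries lay between 65.2 and 68.0 CPM and the 4 sham libraries between 40.8 and 60.7 CPM. The log2 fold change was 0.31 with all libraries (SE 0.13, 95% interval 0.03 to 0.58, edgeR adjusted p = 0.548) and 0.48 without these 2 (SE 0.11, edgeR adjusted p = 0.0520).

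C1qb stood at 21.9, 17.4, 25.9, 24.5 and 21.0 CPM in sham and at 25.1, 27.0, 25.003, 21.0 and 23.8 CPM in TBI. Only the library of rat 7 was above every sham library, and sham rat 2 alone was below every TBI library. The log2 fold change was 0.13 (SE 0.11, 95% interval -0.09 to 0.36, edgeR adjusted p = 0.769), and 0.19 without the libraries labelled rats 3 and 8 (SE 0.12, edgeR adjusted p = 0.567).

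C3 stood at 84.6, 61.7, 98.3, 55.6 and 53.2 CPM in sham and at 122, 109.6, 81.9, 90.5 and 71.1 CPM in TBI. The libraries labelled rats 6 and 7 were above every sham library, and the library labelled rat 3 was the highest of sham. The log2 fold change was 0.41 (SE 0.20, 95% interval -0.03 to 0.86, edgeR adjusted p = 0.619), and 0.61 without the libraries labelled rats 3 and 8 (SE 0.18, edgeR adjusted p = 0.169).

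The hippocampal calls depended on the libraries and the tool for all genes, not for these 3 alone. Of 16963 genes tested by edgeR, 0 (0%) were called in either direction, 1432 had an unadjusted p under 0.05, and 0.519% had all TBI libraries above all sham libraries. DESeq2 called 16 of the 25160 genes to which it gave a p-value. The unadjusted p of C1qa was 0.0316 by edgeR, and 5.22% of genes were higher at an unadjusted p under 0.05. A larger log2 fold change was found in 6.93% of genes for C1qa, 19.5% for C1qb and 3.92% for C3. The two-sided exact permutation test gave p = 0.0714 for C1qa, p = 0.270 for C1qb and p = 0.0873 for C3. Without the libraries labelled rats 3 and 8, edgeR called 263 of 16960 genes and DESeq2 507 of 24893. DESeq2 then called C1qa (log2 fold change 0.48, DESeq2 adjusted p = 0.0112) and C3 (0.62, DESeq2 adjusted p = 0.0233), but not C1qb (0.19, DESeq2 adjusted p = 0.676). The study kept 3 sham and 5 TBI hippocampal libraries and did not name those it left out for poor alignment. Without sham rats 4 and 5, which leaves the same group sizes, the edgeR log2 fold changes were 0.17 for C1qa, 0.16 for C1qb and 0.21 for C3. Without the libraries labelled rats 3, 4, 5 and 8 they were 0.37, 0.30 and 0.42. With the share of the 10 most counted genes as a covariate they were 0.13, 0.16 and 0.19 (edgeR adjusted p = 0.943 for each). With 1 library left out, C1qb ranged from 0.06 (without sham rat 2) to 0.20 (without the library labelled rat 3).

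**Figure D3:**
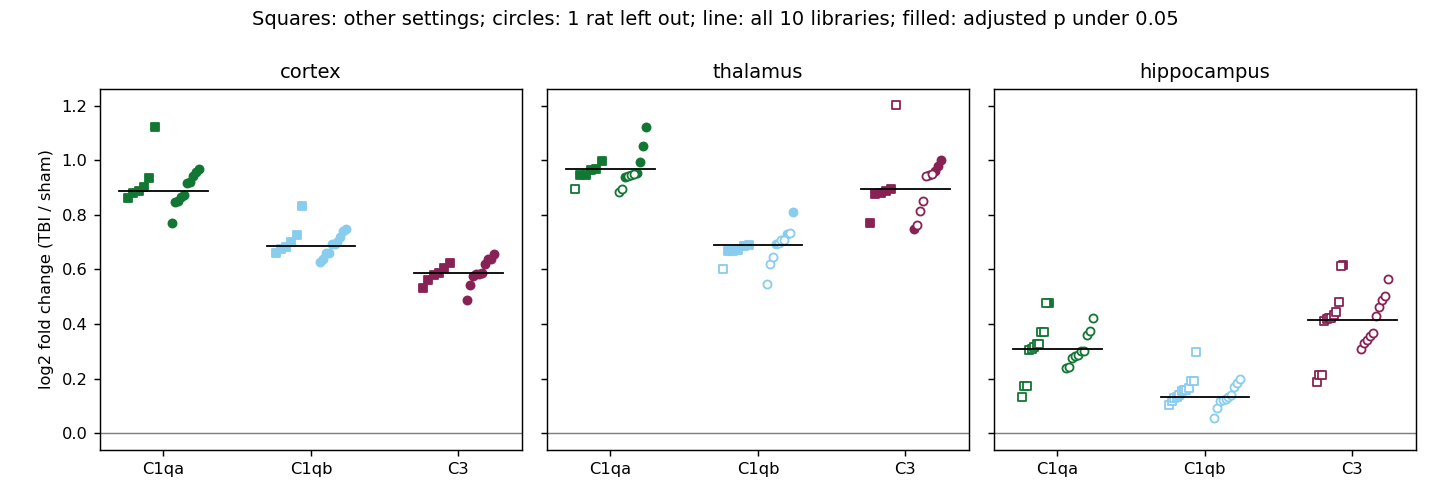
Log2 fold change of TBI over sham on the y axis for each gene in each area, with the value over all 10 libraries as a line, other settings as squares and each rat left out in turn as circles, filled where the adjusted p is under 0.05. Cortical points are all filled, thalamic ones are filled or open with values between 0.55 and 1.20, and nearly all hippocampal points are open.

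Whether the response to TBI differed between areas was asked with an area-by-treatment interaction term over all 30 libraries. None of the 3 genes passed in any pair of areas, where edgeR called 0.582% of 18040 genes between cortex and thalamus, 0.449% between cortex and hippocampus and 0.322% between thalamus and hippocampus. The log2 fold change in the cortex minus that in the thalamus was -0.08 for C1qa (95% interval -0.55 to 0.38), -0.01 for C1qb (-0.39 to 0.38) and -0.32 for C3 (-0.87 to 0.24). With 1 rat left out, the C3 value lay between -0.45 (without rat 6) and -0.12 (without rat 2), the C1qa value between -0.20 (without rat 6) and 0.02 (without rat 10), and the C1qb value between -0.11 (without rat 6) and 0.07 (without rat 8). With all rats, the furthest bound of the C3 interval is larger than its cortical change of 0.59, whereas for C1qa and C1qb the furthest bounds are smaller than the change in either area.

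Against the hippocampus, the differences of the C1q chains were larger than those of C3. For cortex minus hippocampus they were 0.55 for C1qa (95% interval 0.08 to 1.01, edgeR adjusted p = 0.281), 0.52 for C1qb (0.13 to 0.91, edgeR adjusted p = 0.203) and 0.14 for C3 (-0.41 to 0.70, edgeR adjusted p = 0.876). For thalamus minus hippocampus they were 0.63 for C1qa (0.17 to 1.095, edgeR adjusted p = 0.175), 0.53 for C1qb (0.14 to 0.91, edgeR adjusted p = 0.169) and 0.46 for C3 (-0.10 to 1.01, edgeR adjusted p = 0.441). The larger size for the C1q chains than for C3 was not itself tested. Without rat 6, the thalamic differences of C1qa (0.78, edgeR adjusted p = 0.0197) and C1qb (0.65, edgeR adjusted p = 0.0275) were called. In that fit 1402 of 18078 genes were called between thalamus and hippocampus, against 58 of 18040 with all rats. Without the hippocampal libraries labelled rats 3 and 8, the differences fell to 0.46 for C1qa and 0.47 for C1qb against the thalamus and to 0.38 and 0.46 against the cortex. In that fit the differences of C3 were 0.26 for thalamus and -0.06 for cortex.

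The areas also differed in their level in sham rats, which had no impact. C1qa was lower in cortex than in thalamus by 1.06 on the log2 scale (edgeR, log2 difference -1.06, SE 0.16, adjusted p = 1.25e-06), and C1qb by 0.56 (log2 difference -0.56, SE 0.13, edgeR adjusted p = 0.000445). Of all genes, 70.9% were called between these areas, 45.2% between cortex and hippocampus and 68.1% between thalamus and hippocampus. Against the sham hippocampus, the thalamus was higher by 0.74 for C1qa (edgeR adjusted p = 0.000184) and 0.51 for C1qb (edgeR adjusted p = 0.00135), whereas C3 differed by -0.06 (edgeR adjusted p = 0.799) by 0.09 without the libraries labelled rats 3 and 8, and by -0.20 without rat 4. Cortex and hippocampus did not pass for C1qa (log2 difference -0.32, edgeR adjusted p = 0.111), C1qb (-0.05, edgeR adjusted p = 0.773) or C3 (-0.37, edgeR adjusted p = 0.119). Without the hippocampal libraries labelled rats 3 and 8, these 3 differences were -0.20, 0.01 and -0.22, none called, and the thalamus stayed higher than the hippocampus for C1qa (0.86, edgeR adjusted p = 6.20e-05) and C1qb (0.57, edgeR adjusted p = 0.00108). C3 differed by -0.31 between cortex and thalamus (edgeR adjusted p = 0.148) and was called there without rat 2 (-0.52, edgeR adjusted p = 0.0247). The study's methods give another sequencer and read length for the thalamic libraries than the labels do, so if they hold, a level particular to the thalamus and the sequencing run cannot be told apart.

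Over all 6 groups, the mean level of C1qa went up from cortex sham (41.4 CPM) through hippocampus sham (51.4), hippocampus TBI (64.1), cortex TBI (75.3) and thalamus sham (86.2) to thalamus TBI (166). The first 5 of these groups each overlapped their neighbour within 1 SD of the means, and only thalamus TBI stood beyond the next group by that measure. For C1qb the order was cortex sham (21.4), hippocampus sham (22.2), hippocampus TBI (24.4), thalamus sham (31.5), cortex TBI (33.7) and thalamus TBI (50.1), with a step beyond 1 SD only between hippocampus TBI and thalamus sham. For C3 it was cortex sham (54.8), thalamus sham (68.0), hippocampus sham (70.7), cortex TBI (81.0), hippocampus TBI (94.98) and thalamus TBI (125), and no neighbours differed beyond 1 SD. The highest mean of each gene was thus in the thalamus after TBI. Without the libraries labelled rats 3 and 8, the hippocampal means were 47.5 and 66.6 CPM for C1qa, 21.2 and 24.2 CPM for C1qb and 63.8 and 98.3 CPM for C3 (sham and TBI, n = 4 each). Hippocampus sham then came before cortex sham for C1qb and before thalamus sham for C3, and for C1qa the hippocampal groups differed beyond 1 SD. Without sham rats 4 and 5 instead, the hippocampal sham means were 56.6 ± 12.9 CPM for C1qa, 21.7 ± 4.26 CPM for C1qb and 81.6 ± 18.5 CPM for C3 (SD, n = 3). C3 in hippocampus sham then came after cortex TBI, and for C1qa the hippocampal groups overlapped within 1 SD.

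Since C1qa and C1qb encode chains of 1 molecule, their balance was compared within each library, where library scaling cancels. In the cortex the ratio of C1qa to C1qb counts was 1.77 to 2.05 in sham and 2.07 to 2.53 in TBI. All 5 TBI libraries were above all sham libraries, and the geometric means were 1.93 and 2.21. The log2 ratio was 0.20 higher after TBI (SDs 0.10 in sham and 0.12 in TBI, two-sided exact permutation p = 0.00794, adjusted over 6 tests 0.0476). An adjusted p of 0.0476 is the smallest that 1 result among 6 such tests can reach alone, so leaving out a rat can end the call while the groups stay apart. This was so without rat 2, 3, 5 or 8 (difference 0.15 to 0.21, adjusted exact p = 0.0952 or 0.143). In the thalamus the ratios were 2.73 and 3.29 (log2 difference 0.27, exact permutation p = 0.0714, adjusted 0.214), and in the hippocampus 2.296 and 2.63 (0.20, exact permutation p = 0.270, adjusted 0.405). The groups overlapped in both of these areas. The hippocampal difference was 0.31 without the libraries labelled rats 3 and 8 (adjusted exact p = 0.229) and 0.08 without sham rat 4.

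C3 relative to the sum of C1qa and C1qb did not pass the test in any area. The geometric mean ratio was 0.874 in cortical sham and 0.743 in cortical TBI (log2 difference -0.23, exact permutation p = 0.159, adjusted 0.317). That difference was -0.15 without rat 2, -0.16 without rat 8 and -0.34 without rat 6 (adjusted exact p = 0.4, 0.488 and 0.0714). Rat 6 had the highest such ratio of the TBI rats in each area. In the thalamus the ratios were 0.558 and 0.586 (0.07, exact permutation p = 0.802) and in the hippocampus 0.945 and 1.05 (0.16, exact permutation p = 0.389, adjusted 0.467). The thalamic difference changed its sign with single rats, from -0.09 without rat 2 and -0.06 without rat 6 to 0.18 without rat 4. The hippocampal one was 0.21 without the libraries labelled rats 3 and 8 (adjusted exact p = 0.48), 0.07 without rat 6 and 0.27 without rat 10.

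**Figure D4:**
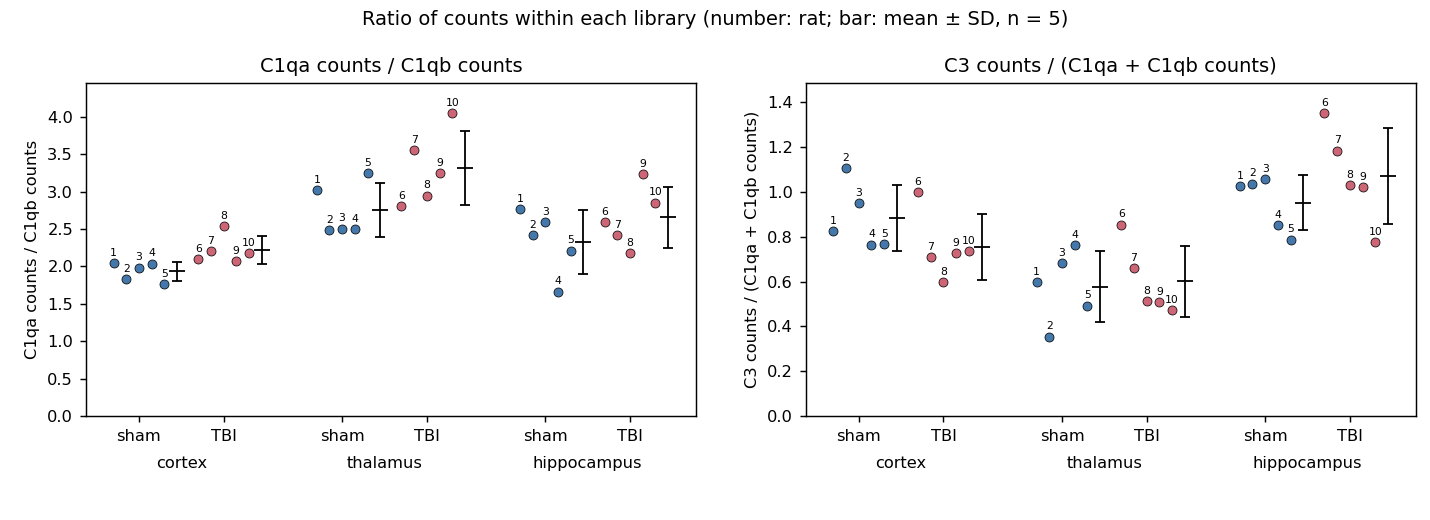
Ratio of C1qa to C1qb counts (left) and of C3 to C1qa plus C1qb counts (right) on the y axis in each library, by area and treatment, with sham in blue, TBI in red, the rat number above each point and bars for the arithmetic mean ± SD (n = 5). Cortical TBI libraries have C1qa to C1qb ratios of 2.07 to 2.53 above sham at 1.77 to 2.05, and rat 6 has the highest C3 ratio among TBI rats in each area.

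The 3 genes also went up and down together across the libraries. After the mean of each area was subtracted from log2 CPM, the Pearson coefficient over 30 libraries was 0.90 for C1qa with C1qb (Spearman 0.91), 0.77 for C1qa with C3 (Spearman 0.77) and 0.73 for C1qb with C3 (Spearman 0.79). These are descriptions, since the 30 points come from 10 rats, each pair of values shares a library and its depth, and the TBI difference is in them. Once the treatment mean of each area was also removed, the Pearson coefficients were 0.71, 0.46 and 0.41.

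Among 16003 other genes, C1qb ranked 85th in likeness to C1qa, and C3 ranked 586th. The most like C1qa was ENSRNOG00000012749 (r = 0.97), which was also the fifth most like C1qb (r = 0.92), and the most like C3 was ENSRNOG00000021503 (r = 0.92). Both were called higher after TBI in cortex and thalamus, a difference that is itself part of this likeness. With the treatment mean of each area also removed, C1qb ranked 95th and C3 874th in likeness to C1qa. In likeness to C3, C1qa went from 233rd to 1533rd. ENSRNOG00000012749 stayed the most like C1qa (r = 0.91). The gene most like C3 was then another (r = 0.85), called higher in cortex but not in thalamus.

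**Figure D5:**
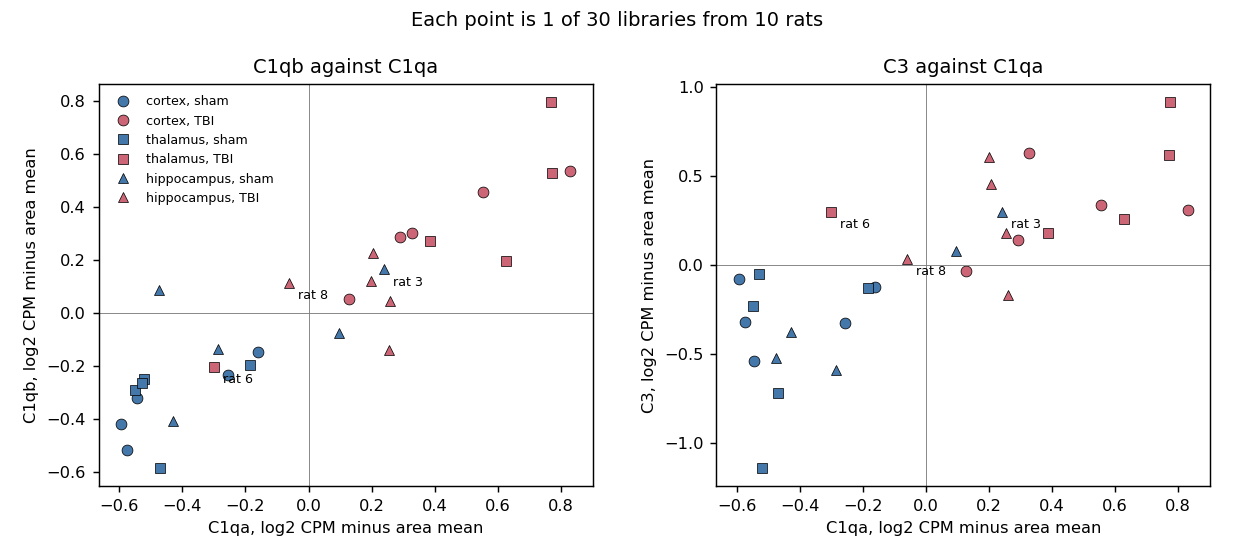
Log2 CPM minus the area mean in each of the 30 libraries, C1qb (left) and C3 (right) on the y axis against C1qa on the x axis, with sham in blue, TBI in red and the area by symbol. The points run from low to high together, more tightly for C1qb (Pearson 0.90) than for C3 (0.77), and the marked thalamic rat 6 is low for both C1q chains but not for C3.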

How the data were processed

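mRNA was sequenced from 3 brain areas of 5 sham-operated rats and 5 rats with TBI. Reads were aligned with STAR to Rnor_5.0, per the submitters' processing notes, which also name DESeq2 and R 3.1.0, and the authors deposited unnormalized counts per Ensembl gene, in 1 table per area. The counting tool and the use of strand are not given in the sources used here. If strand was not used, reads of overlapping antisense genes cannot be told apart from those of the members. Every column was matched to a sample by name, with 0 left over. The members, lists and tests were chosen with earlier results of these data known, and the pairing of the 3 identifiers with C1qa, C1qb and C3 was taken as given, since the RefSeq table used here holds 0 Ensembl identifiers in 47357 genes.

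The main tool was edgeR 4.0.16 in R 4.3.3, with DESeq2 1.42.0 and limma 3.58.1 for alternatives. A gene entered a test if filterByExpr kept it, at a minimum count of 10 and a total of 15. After TMM scaling, sham and TBI were set against each other per area by robust quasi-likelihood F tests, and p-values were adjusted by Benjamini-Hochberg over all genes tested, with a threshold of 0.05. CPM was scaled over all 30 libraries, and log2 CPM used a prior count of 3. Interactions and area levels came from 1 fit of 6 groups. Exact permutation tests used all 252 arrangements. The steps were tested on simulated data.

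Named with values were C1qa, C1qb and C3 in every library, and as alike the 5 genes with the highest Pearson coefficient for each member, of which 2 identifiers are printed. Libraries of 1 group differed beyond sampling noise (chi-square per degree of freedom at least 15.1). The areas come from the same rats, and the mean correlation of same-rat deviations was 0.06 for cortex and thalamus, 0.12 for cortex and hippocampus and 0.04 for thalamus and hippocampus, so the rat was a block in 1 alternative. The methods describe 8 hippocampal libraries, 3 sham and 5 TBI, after removal of 2 with poor alignment. Those 2 were thus sham, and their rats are not named. All 10 were used here. The 28 genes for the rat match were chosen after seeing the data, by a correlation of at least 0.8 between cortex and thalamus and a log2 range of at least 1. Alternatives were DESeq2, limma's voom with quality weights per library, no filter, DESeq2's size factors (RLE) in edgeR, 0.5 added to each count for the ratios, 1 fit for all areas, the rat block and libraries left out. Added after seeing the data were DESeq2 without hippocampal rats 3 and 8 and a covariate for the share of the 10 most counted genes. Fits of 2 areas alone and of the hippocampal libraries with FC120 in their column names were also added then. The FC120 fit left out rats 1, 5 and 10 and gave log2 fold changes of 0.33 for C1qa, 0.12 for C1qb and 0.48 for C3. None was called by edgeR. What FC120 stands for is not stated in the sources used here.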

Additional observations from a re-analysis of the deposited data

Results flagged for a closer look

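In 3 of 30 groups of 5 libraries tested, 1 library lay far from the other 4, with a gap to its nearest neighbour above 0.71 of the group's whole range. Chance marks about 1 in 20 groups. C1qa was at 54.4 CPM in the hippocampal library labelled TBI rat 8, against 65.2 CPM in the nearest library (0.795 of the range). C1qa was at 103 CPM in the thalamus of sham rat 1, against 84.6 CPM in the nearest (0.803 of the range). C1qb was at 26.0 CPM in the thalamus of sham rat 5, against 31.9 CPM in the nearest (0.730 of the range).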

How the results depend on the processing

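In the cortex, each of the 3 genes was called under all 6 alternatives and with each of 10 rats left out, and no alternative reversed the direction of a called difference. In the thalamus, the log2 fold changes with 1 rat left out were 0.88 to 1.12 for C1qa, 0.55 to 0.81 for C1qb and 0.75 to 1.002 for C3. With the share of the 10 most counted genes as a covariate they were 0.89, 0.60 and 1.20, none called. The 934 thalamic genes called became 1931 with DESeq2, 2692 with voom, 3457 in 1 fit of all libraries, 0 with the covariate and 0 to 2421 with 1 rat left out. In the hippocampus, 0 genes became 16 with DESeq2, 263 without rats 3 and 8, 82 without rats 3, 4, 5 and 8, 0 to 1 with 1 rat left out, and, with DESeq2, 1 without rats 4 and 5 and 507 without rats 3 and 8, where C1qa (0.48) and C3 (0.62) were called. Interactions between cortex and thalamus went from 105 genes to 258 with DESeq2 and 65 to 136 with 1 rat left out. Those between cortex and hippocampus went from 81 to 310 with DESeq2, 26 without rats 3 and 8, 537 in a fit of 2 areas alone and 14 to 116 with 1 rat left out. Those between thalamus and hippocampus went from 58 to 18 without the filter, 346 with DESeq2, 0 without rats 3 and 8, 0 in the fit of 2 areas alone and 0 to 1402 with 1 rat left out, where C1qa ranged from 0.49 to 0.78 and C1qb from 0.40 to 0.65. With 1 rat left out, the sham difference of C3 between cortex and thalamus was -0.52 to -0.21, and the cortical log2 ratio of C1qa to C1qb differed by 0.15 to 0.22. The cause was not tested.

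With the rat as a replicate block, 49 genes were called between cortex and hippocampus and 31 between thalamus and hippocampus, and no call of C1qa, C1qb or C3 changed. TBI and sham groups share no rats, so no block by rat was possible within an area. Each member had at least 293 counts in every library, and depth was not varied.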
